A study of Rattus norvegicus with 15 samples.

Results

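The comparison described here set multifidus muscle of rats given vitamin D after spinal surgery (the VitD group, 3 libraries) against that of rats operated on and left untreated (the surgery group, 2 libraries). These 5 libraries were chosen by their group labels from the 15 RNA sequencing libraries of the study. The question was what vitamin D alone changed in operated muscle, and how far the spread between replicates limited the answer. All animals were wild type male Sprague Dawley rats aged 12 weeks and weighing 340 to 370 g. The study gives this age and weight for the rats as they were divided into groups. Rats of both groups had spinal surgery, in the study a hemilaminectomy with ligation of the left L5 spinal nerve, and neither group received plasma-derived mitochondria (pMT). VitD rats received cholecalciferol, at 150 µg (6000 IU) per site and 300 µg per rat. In the study pMT was injected 2 weeks after surgery, and muscle was harvested 2 weeks later. For pMT the injected sites were the left paraspinal muscles at L4–L5 and L5–L6. The sites, day and vehicle of the VitD injections are not given in the sources used here. The surgery group had no injection, so vitamin D and the injection itself cannot be told apart. The 2 control libraries, from uninjured rats, are given beside the comparison for scale. The labels do not say whether the libraries of a group came from separate animals, so the p-values measure the spread between libraries, which may be technical.

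Cholecalciferol is an inactive precursor. It is hydroxylated in the liver, mainly by Cyp2r1 and Cyp27a1, and again by Cyp27b1 to calcitriol, which binds the vitamin D receptor (Vdr). The receptor pairs with a retinoid X receptor on DNA, and its best-known target, Cyp24a1, encodes the enzyme that breaks calcitriol down. Adult skeletal muscle is known for low Vdr expression.

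The 5 libraries held 61902001 to 71377227 counts each (median 69303658). The tissue label was borne out by its markers: 10 fibre genes such as Acta1 and Ckm together took 125592 to 158425 CPM (counts scaled to a common library size) in each of the 5 libraries. Genes that define neural tissue (Gfap, Snap25 and Nefl) summed to at most 0.222 CPM. In bulk RNA, fewer cells of a type and less RNA per cell cannot be told apart.

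No gene differed between the VitD and surgery groups at a Benjamini-Hochberg adjusted p under 0.05 in edgeR's quasi-likelihood test. Of 17201 genes tested 0% were called, and the smallest adjusted p was 1. The fit took in all 15 libraries. Its SEs, intervals and p-values therefore also rest on the spread within the control group and the groups given pMT. Without adjustment, 139 genes (0.808%) had a p under 0.05, of which 61 were higher with VitD (0.355%) and 78 lower (0.453%). Such a threshold passes 5% of genes where none differs and the fitted spread matches that of the libraries compared. Fewer passed here, so p-values in this fit ran larger than that. The small share does not show that vitamin D changed nothing. Of the 139, 92 had a mean below 2 CPM, and in 28 a group lay at the floor, set at 3 counts in every library. The other 47 genes, 21 higher and 26 lower, had a median absolute log2 difference of 0.40. With only the 5 libraries in the quasi-likelihood fit 0 genes were called, and 235 (1.403%) had an unadjusted p under 0.05. DESeq2 also called no gene, with 169 at an unadjusted p under 0.05. The exception among the tools was limma voom with a quality weight for each library, which called 419 genes, 128 higher and 291 lower. That fit gave VitD 2 a weight of 8.25, VitD 1 a weight of 0.203 and VitD 3 a weight of 0.681, so that it rested mostly on VitD 2 among the treated libraries. The same tool without weights, added after the data were seen, called 0 genes, with 218 at an unadjusted p under 0.05.

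The precision of the comparison depended on expression level. For the 11564 genes with a mean of at least 2 CPM and a standard error, the 95% interval of the VitD difference had a median half-width of 0.38 on the log2 scale, or 1.30-fold. In 95.2% of these genes the whole interval lay within a 2-fold change either way, and in 69.9% it lay within 1.5-fold. Below 1 CPM the share within 2-fold was 13.0%. With at least 2 CPM, 5 genes had a fitted difference of 2-fold or more: Rn18s, Rn7sl1, LOC310926, Bc1 and Ugt1a7c. All 5 were highest in VitD 1 and are described with the RNA measures of that library.

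**Figure D1:**
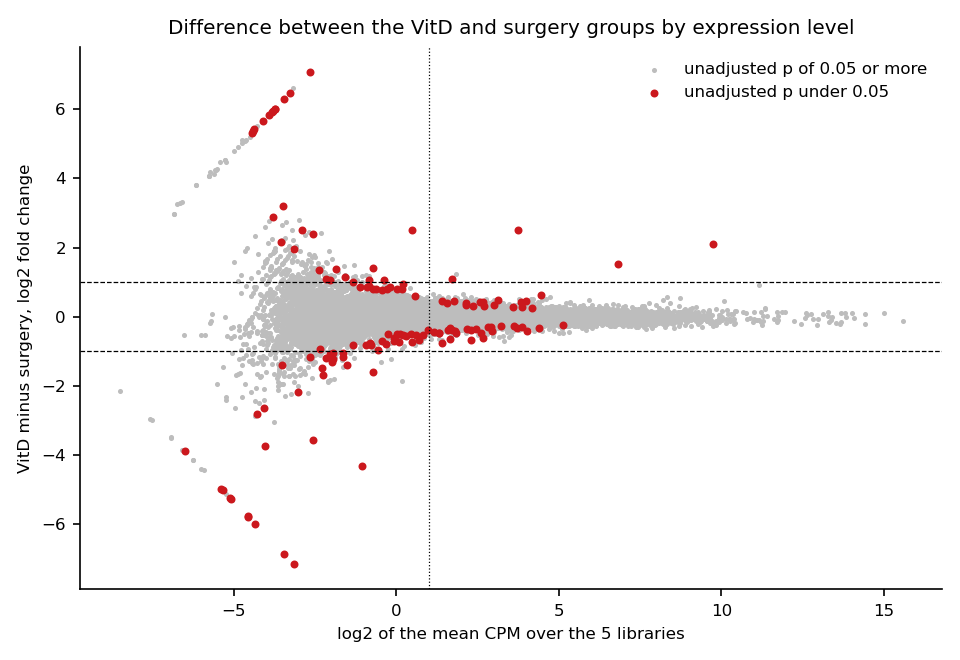
Fitted log2 fold change of VitD minus surgery (vertical axis) against the log2 of the mean CPM over the 5 libraries (horizontal axis), with a point per gene. Red points have an unadjusted p under 0.05, the dashed lines mark 2-fold and the dotted line 2 CPM. To the right of the dotted line 5 genes pass 2-fold. The oblique rows at low CPM are genes without counts in 1 of the groups, whose fitted fold depends on the prior count, and 6 genes without counts in the 5 libraries are not drawn.

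VitD 1 differed more from the other VitD libraries than those did from surgery. The distance between libraries was taken as the SD over 7804 genes of the log2 CPM ratio. Between the Surgery libraries it was 0.106. VitD 2 lay at 0.138 and 0.117 from them, and VitD 3 at 0.188 and 0.174. VitD 1 lay at 0.384 and 0.379 from the Surgery libraries, at 0.374 from VitD 2 and at 0.498 from VitD 3. VitD 2 and VitD 3 were 0.167 apart, no more than VitD 3 was from surgery, so the largest distances among these 5 libraries all involved VitD 1. The control libraries were 0.164 apart and lay 0.371 to 0.382 from the Surgery libraries. The median SD of log2 CPM within a group, over genes of at least 2 CPM, was 0.166 for VitD, 0.0482 for surgery and 0.0838 for control. In 58.3% of these genes both Surgery libraries lay inside the range of the VitD libraries.

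**Figure D2:**
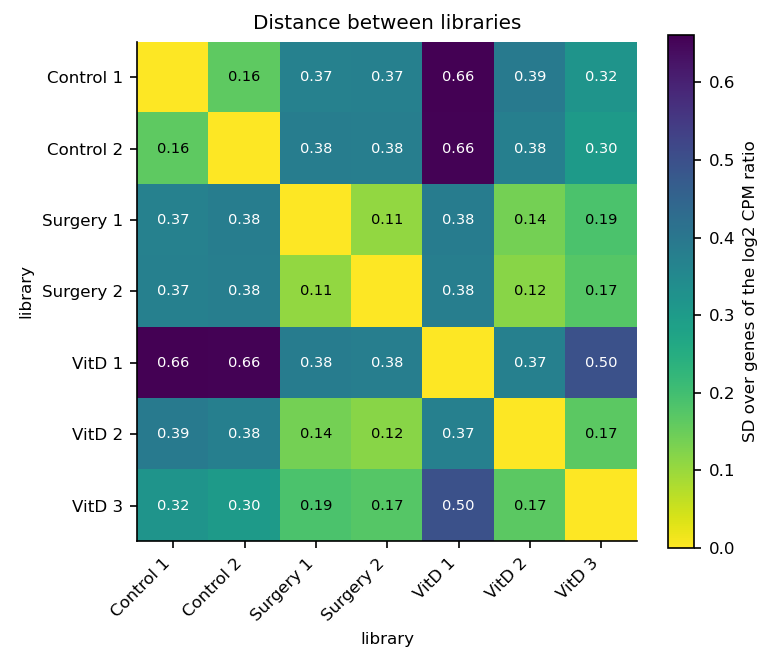
Distance between each pair of 7 libraries, as the SD over 7804 genes of the log2 CPM ratio (colour scale and printed values). Surgery 1, Surgery 2 and VitD 2 lie within 0.14 of each other, VitD 3 lies up to 0.19 from them, and VitD 1 is at least 0.37 from all other libraries.

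The genes that differed most between VitD 1 and VitD 3 were compared with the other libraries. Among genes with a mean over 5 CPM in VitD 1 and VitD 3, 205 had over 2-fold more CPM in VitD 1 than in VitD 3. On a linear scale that is 0 at the level of VitD 3 and 1 at that of VitD 1, their median position was 0.264 in Surgery 1, 0.265 in Surgery 2 and 0.280 in VitD 2. For the 300 such genes over 2-fold lower in VitD 1 the positions were 0.278, 0.280 and 0.290. The control libraries lay beyond VitD 3 on both scales, at -0.158 and -0.151 for the first set and at -0.288 and -0.269 for the second. VitD 2 and the Surgery libraries therefore held nearly the same place between the other VitD replicates, in both sets of genes. Genes chosen for a difference between VitD 1 and VitD 3 tend to place other libraries between them. These values describe the libraries, and what set them apart was not tested.

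Several genes of the denervation list had this order. Myh3, the embryonic myosin heavy chain, measured 326 and 335 CPM in the Surgery libraries, and 993, 343 and 113 CPM in VitD 1, 2 and 3. VitD 1 was far above surgery, VitD 2 beside it and VitD 3 below it, so the groups overlapped, while both controls (30.7 and 22.0 CPM) lay below all 5 libraries. The fitted log2 difference was 0.55 ± 0.72 (SE, n = 3 against 2; adjusted p = 1), and its 95% interval ran from -1.01 to 2.11. Without VitD 1 the value was -0.53, and without VitD 3 it was 1.02. Ankrd1, a stretch-responsive protein of the sarcomere and nucleus, measured 244 and 253 CPM with surgery and 752, 267 and 84.7 CPM with VitD. Its VitD libraries again lay on both sides of surgery, and its log2 difference of 0.57 ± 0.61 (SE) became -0.50 without VitD 1. Actc1, the cardiac actin made by developing muscle, had 186 and 178 CPM with surgery against 445, 184 and 88.5 CPM with VitD. Cdkn1a, a cell cycle inhibitor and p53 target that the vitamin D receptor is also known to induce, had 55.6 and 54.1 CPM with surgery against 114, 50.3 and 32.1 CPM with VitD. Both genes kept the same order, and in controls they measured at most 19.0 and 9.23 CPM. Low levels of Ankrd1, Actc1 and Cdkn1a were not particular to uninjured muscle. In the other 10 libraries, most of them from operated rats given pMT, Ankrd1 measured 7.07 to 15.3 CPM, Actc1 16.8 to 31.8 CPM and Cdkn1a 7.96 to 14.0 CPM. The same does not hold for Myh3, which was not over 2-fold higher in all 5 libraries than in every one of the other 10. Those operated rats also had pMT, so surgery, pMT and any unlabelled batch cannot be told apart in these levels. The cause of the gap between the controls and the 5 libraries was not tested.

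Among the 24 genes listed as a denervation response, 23 were tested and 18 had a positive fitted difference, with a median of 0.10 on the log2 scale beside 0.00 over all genes tested. None had an unadjusted p under 0.05, against 0.808% of all genes tested. In none were the groups apart, against 7.69% of all genes tested with VitD above and 8.16% with VitD below. The median of the list relative to the mean of the Surgery libraries was 0.53 in VitD 1, 0.02 in VitD 2 and -0.35 in VitD 3, and it was -1.34 and -1.38 in the controls. In 13 of the 23 genes VitD 1 was the highest and VitD 3 the lowest of the 5 libraries, against 18.5% of all genes tested. The acetylcholine receptor subunit Chrna1 measured 13.8 and 14.5 CPM with surgery and 24.5, 14.5 and 10.9 CPM with VitD. Runx1, a transcription factor induced in denervated fibres, measured 21.0 and 21.8 CPM with surgery and 39.2, 20.4 and 14.7 CPM with VitD. Without VitD 1 the median of the list was -0.10, and without VitD 3 it was 0.28. Lists are described by counts and medians only, and carry no test of their own.

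**Figure D3:**
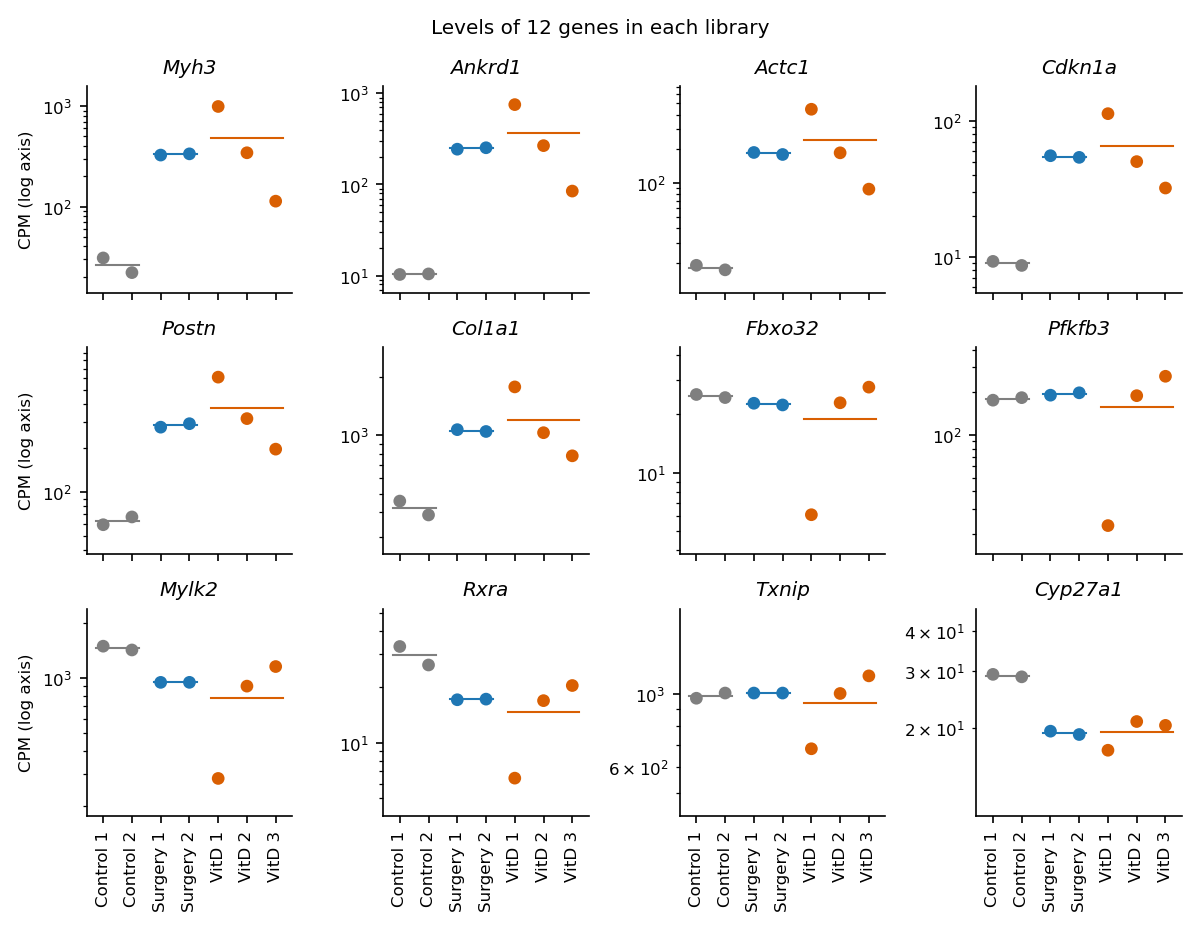
CPM of 12 genes on log axes in each control, surgery and VitD library, with points for libraries and lines for group means. VitD 1 is the highest library for Myh3, Ankrd1, Actc1, Cdkn1a, Postn and Col1a1 and the lowest of the 7 for Fbxo32, Pfkfb3, Mylk2, Rxra, Txnip and Cyp27a1, while VitD 2 lies near the Surgery libraries.

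Extracellular matrix genes followed the same pattern. Of 22 fibrillar and basement membrane collagen genes, 19 had a positive difference, with a median of 0.12. The list stood at 0.50 in VitD 1, 0.00 in VitD 2 and -0.22 in VitD 3 relative to surgery. Col1a1, the main chain of type I collagen, measured 1070 and 1047 CPM with surgery and 1779, 1032 and 783.9 CPM with VitD. Col3a1, which forms the finer fibrils of early scar, measured 2366 and 2377 CPM with surgery and 3907, 2458 and 1901 CPM with VitD. For both, VitD 1 was high, VitD 3 low and VitD 2 near surgery. Proteoglycans and matricellular proteins had a median of 0.16, with 19 of 21 genes tested positive, and stood at 0.55, 0.06 and -0.23 in the VitD libraries. Among them Postn, a matricellular protein of repair, measured 278 and 294 CPM with surgery and 613, 318 and 197 CPM with VitD. In this list 5 genes were higher in all VitD libraries than in both Surgery libraries, against 7.69% of all genes tested. Dcn, a collagen-binding proteoglycan, was among these 5, with 627 and 657 CPM against 744, 691 and 722 CPM, a log2 difference of 0.16 ± 0.15 (SE; unadjusted p = 0.301). The 5 fibroblast markers (Pdgfra, Dcn, Lum, Col1a1 and Col3a1), 4 of which had a positive difference, summed to 4214 and 4239 CPM with surgery and to 6653, 4345 and 3552 CPM with VitD. In 3 of the 5 VitD 1 was highest and VitD 3 lowest, and most of the sum is from Col1a1 and Col3a1, which also belong to the collagen list. The part of fibroblasts in the matrix values was not tested.

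Macrophage, complement and cell cycle lists were arranged alike. Macrophage genes had a median of 0.07 over 18 genes tested, and stood at 0.36, -0.02 and -0.16 in the VitD libraries relative to surgery. The lysozyme gene Lyz2 measured 157 and 159 CPM with surgery and 240, 158 and 122 CPM with VitD. Complement genes had a median of 0.07 with 21 of 27 positive, and in 20 of the 27 VitD 1 was highest and VitD 3 lowest. Cell cycle genes had a median of 0.13, and stood at 0.58, 0.00 and -0.25. Mki67, a nuclear protein of dividing cells, measured 8.74 and 9.08 CPM with surgery and 15.8, 9.75 and 6.04 CPM with VitD. T and NK cell genes stood at 0.32, 0.04 and -0.61, and 2 of the 13 tested had an interval within 2-fold. Cd4, which macrophages of rat also express, made up most of their CPM, with 61.9 and 61.6 CPM with surgery and 71.2, 61.7 and 57.6 CPM with VitD. Lists of B and plasma cells and of neutrophils did not follow this order: B and plasma cell genes stood at 0.13, 0.02 and 0.08 in VitD 1, 2 and 3, and the 4 neutrophil markers at 0.30, 0.04 and 0.34. MHC class II genes stood closer together, at 0.09, -0.05 and -0.11, and Cd74, the invariant chain, measured 437 and 429 CPM with surgery and 448, 416 and 410 CPM with VitD.

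Lists of glycolysis, calcium handling and fast fibre genes showed the opposite arrangement. Glycolysis and glycogen genes had a median of -0.11 with 4 of 26 positive, the lowest median of the 43 lists. They stood at -0.44 in VitD 1, -0.03 in VitD 2 and 0.10 in VitD 3 relative to surgery, and in 21 of the 26 VitD 3 was highest and VitD 1 lowest, against 19.8% of all genes tested. Pfkfb3, which makes an activator of glycolysis, measured 191 and 199 CPM with surgery and 22.9, 189 and 260 CPM with VitD. The low value came from VitD 1 alone, and its log2 difference was -0.31 ± 0.61 (SE). Aldoa, the muscle aldolase, measured 12828 and 12644 CPM with surgery and 7389, 12232 and 14121 CPM with VitD. Mylk2, the myosin light chain kinase of skeletal muscle, measured 945 and 946 CPM with surgery and 283, 902 and 1153 CPM with VitD. VitD 1 was the lowest and VitD 3 the highest of the 5 libraries for both. Calcium handling genes stood at -0.32, 0.02 and 0.12. Atp2a1, the calcium pump of fast fibres, measured 14072 and 13915 CPM with surgery and 7169, 13816 and 16456 CPM with VitD. Fast fibre genes stood at -0.32, 0.00 and 0.10, with VitD 3 highest and VitD 1 lowest in 9 of 14. Mylpf, the fast regulatory light chain and the most abundant of them, ran the other way, with 21456 and 21190 CPM with surgery and 25743, 21768 and 19984 CPM with VitD.

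Atrophy ligases and Foxo genes stood at -0.58 in VitD 1, 0.01 in VitD 2 and 0.22 in VitD 3, and glucocorticoid response genes at -0.58, -0.02 and 0.12. Fbxo32, the ubiquitin ligase atrogin-1, measured 22.7 and 22.3 CPM with surgery and 6.08, 22.9 and 27.5 CPM with VitD. VitD 1 was low and the other VitD libraries lay just above surgery. Trim63, the ligase MuRF1, was steadier, with 304 and 297 CPM against 258, 305 and 318 CPM. Foxo3, a transcription factor that drives both ligases, measured 5.05 and 5.05 CPM with surgery and 2.54, 4.88 and 5.87 CPM with VitD. Circadian clock genes stood at -0.42, 0.00 and 0.11, with 117 CPM of Nr1d1, a repressor of the clock, in VitD 1 beside 207 and 199 with surgery. Over the 43 lists all medians lay between -0.11 and 0.17, VitD 1 and VitD 3 lay on opposite sides of surgery in 37, and VitD 2 was within 0.1 of surgery in 41.

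**Figure D4:**
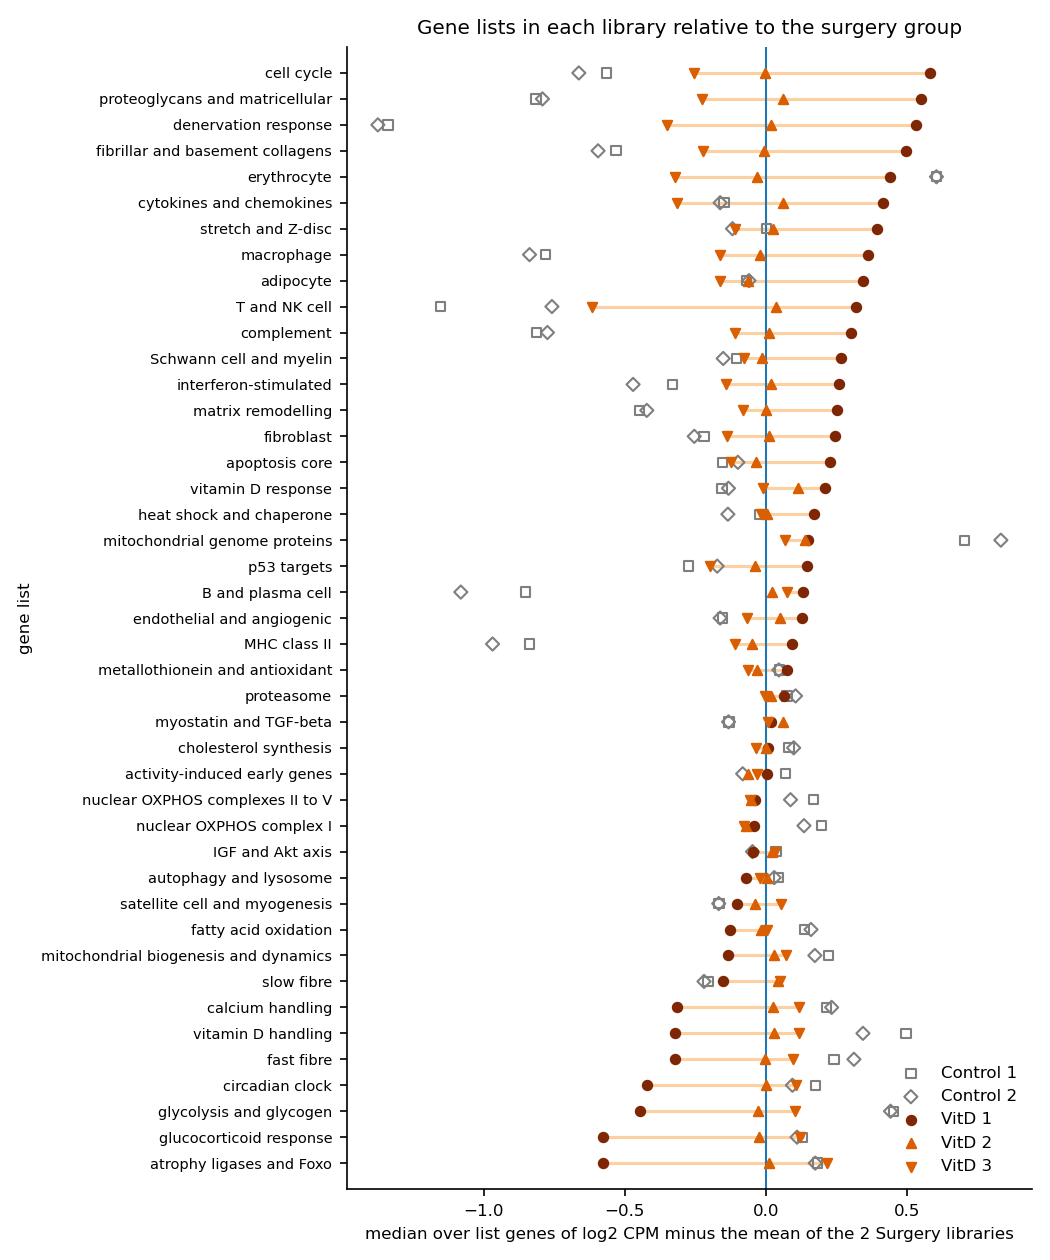
Median over the genes of each of 43 lists of log2 CPM minus the mean of the Surgery libraries (horizontal axis), with a marker per control and VitD library and a bar from VitD 3 to VitD 1. The blue line at 0 is the surgery level. VitD 1 and VitD 3 flank it in 37 lists, VitD 2 lies within 0.1 of it in 41, and the denervation response stands at 0.53 in VitD 1, -0.35 in VitD 3 and -1.34 in Control 1.

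The vitamin D pathway itself gave few counts. Cyp24a1 had 0 counts in each of the 15 libraries, and so did Gc, the carrier of vitamin D in blood, and Lrp2, a receptor for its uptake. A count of 0 allowed a level of up to 0.0437 CPM in VitD 2, the library with the highest limit of the 5. Vdr had 33 and 25 counts in the Surgery libraries and 17, 25 and 34 in VitD 1, 2 and 3, with 37 and 33 in the controls. The receptor thus lay between 0.199 and 0.443 CPM in the 5 libraries, and the groups overlapped, with a log2 difference of -0.20 ± 0.45 (SE) and an interval from -1.16 to 0.75. Cyp27b1 had 0 counts in both Surgery libraries and 6, 5 and 4 in the VitD libraries, below the expression filter. These were at most 6 reads in over 61902001, and Control 2 had 4. Cyp2r1 measured 0.310 and 0.205 CPM with surgery and 0.316, 0.451 and 0.273 CPM with VitD. Limits drawn from a count of 0 cover counting error only.

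The partners of the receptor had more counts. Rxrg, the retinoid X receptor most abundant here, had 59.2 and 57.5 CPM with surgery and 24.9, 56.1 and 67.7 CPM with VitD, and Rxra had 17.1 and 17.2 against 6.42, 16.9 and 20.4 CPM. In both VitD 1 was low and the groups overlapped, and the SE of Rxra, 0.58, was larger than that of Vdr. Rxrb was closer, at 25.8 and 27.3 CPM against 18.8, 24.0 and 27.9 CPM. Cyp27a1, a vitamin D hydroxylase better known in bile acid synthesis, measured 19.5 and 19.1 CPM with surgery and 17.0, 20.9 and 20.3 CPM with VitD. Its log2 difference was 0.01 ± 0.13 (SE), with an interval from -0.26 to 0.28. Pdia3, a protein disulfide isomerase also described as a membrane binding partner of calcitriol, measured 124 and 129 CPM with surgery and 179, 137 and 116 CPM with VitD. Of the 15 genes of vitamin D handling 11 were tested, with a median of 0.01 and 6 positive. None had an unadjusted p under 0.05, against 0.808% of all genes tested. None had its groups apart, against 7.69% of all genes tested with VitD above and 8.16% with VitD below.

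Known targets of the receptor gave no called gene either. Of the 19 listed, 12 were tested, and the calcium channels Trpv5 and Trpv6, the calcium binding protein S100g, the osteocalcin gene Bglap and Fgf23 had 0 counts in the 5 libraries. The median difference of the tested targets was 0.09, with 9 positive. None was at an unadjusted p under 0.05, against 0.808% of all genes tested. In 2 of the 12 (16.7%) all VitD libraries were above both Surgery libraries, against 7.69% of all genes tested. These were Spp1, which encodes osteopontin, and Kl, a co-receptor of Fgf23. In none were all VitD libraries below, against 8.16% of all genes tested. Spp1 measured 1.49 and 1.47 CPM with surgery and 3.16, 1.62 and 1.76 CPM with VitD, a log2 difference of 0.56 ± 0.75 (SE). VitD 1 stood apart, and the other VitD libraries were just above surgery. Kl had 0 counts in both Surgery libraries and 4, 6 and 4 in the VitD libraries, and 0 and 9 in the controls. Txnip, an inhibitor of thioredoxin first named as a vitamin D induced protein, measured 1008 CPM in both Surgery libraries and 682, 1005 and 1137 CPM with VitD. Thbd, which encodes thrombomodulin, measured 42.7 and 42.6 CPM with surgery and 45.4, 47.0 and 42.1 CPM with VitD. The calcium pump Atp2b1 measured 27.5 and 27.6 CPM against 25.4, 29.1 and 32.8 CPM, and the lipopolysaccharide co-receptor Cd14 measured 9.50 and 8.78 against 11.7, 10.7 and 8.36 CPM. None of these 4 genes separated the groups.

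The 20 genes named for the smallest unadjusted p, 10 in each direction, all had a mean of at least 2 CPM and no overlap between the groups, as their choice required. They are given as the candidates nearest to the threshold under these conditions, and each had an adjusted p of 1. Mex3c, an RNA-binding ubiquitin ligase, measured 11.6 and 11.9 CPM with surgery and 16.3, 15.7 and 15.01 CPM with VitD. Its replicates were tight in both groups, with a log2 difference of 0.41 ± 0.12 (SE; unadjusted p = 0.00342), but the controls at 14.3 and 14.95 CPM lay with the VitD libraries. Cul4b, a scaffold of ubiquitin ligases, measured 13.1 and 13.0 CPM with surgery and 19.7, 19.7 and 14.5 CPM with VitD. VitD 3 was much closer to surgery than the other replicates. Nin, which encodes the centrosome protein ninein, measured 5.23 and 5.35 CPM against 6.56, 7.04 and 7.48 CPM, and the controls stood at 4.77 and 5.27. Yes1, a kinase of the Src family, measured 6.55 and 7.32 CPM against 10.3, 9.46 and 9.53 CPM, with controls at 6.44 and 7.45. For Nin and Yes1 the VitD libraries were thus above all 4 libraries of the other groups. The other higher genes, beside Rn18s and Rn7sl1, were Cd3eap (log2 difference 0.31), a subunit of RNA polymerase I, Jrkl (0.44), Dennd6a (0.24) and LOC690155 (0.40).

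Among the lower genes, Itga3 had the largest fitted difference. This laminin-binding integrin subunit measured 3.90 and 3.996 CPM with surgery and 1.84, 2.49 and 3.28 CPM with VitD, with controls at 4.72 and 4.73. All VitD libraries were below the other groups, and the log2 difference was -0.64 ± 0.19 (SE; unadjusted p = 0.00451; interval from -1.05 to -0.23). It ranged from -0.87 without VitD 3 to -0.45 without VitD 1. Tpgs1, a subunit of the tubulin polyglutamylase complex, measured 19.5 and 18.9 CPM against 13.9, 13.6 and 15.7 CPM, with controls between at 17.5 and 15.7. Pias4, a SUMO ligase, measured 13.7 and 13.9 CPM against 10.7, 11.7 and 11.8 CPM. Endog, a mitochondrial nuclease, measured 23.6 and 23.4 CPM with surgery and 17.8, 18.4 and 20.2 CPM with VitD. It was the only one of 30 core apoptosis genes with an unadjusted p under 0.05, against 0.808% of all genes tested. Its log2 difference was -0.32 ± 0.13 (SE; unadjusted p = 0.0277), and the controls at 27.2 and 24.2 CPM were above both groups. Nhlrc1, the ubiquitin ligase malin of glycogen metabolism, measured 3.13 and 2.80 CPM against 1.65, 2.17 and 2.64 CPM. The others were LOC688516 (-0.47), Gemin4 (-0.29), Lrrc61 (-0.49), Aatk (-0.40) and Fam109a (-0.36).

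**Figure D5:**
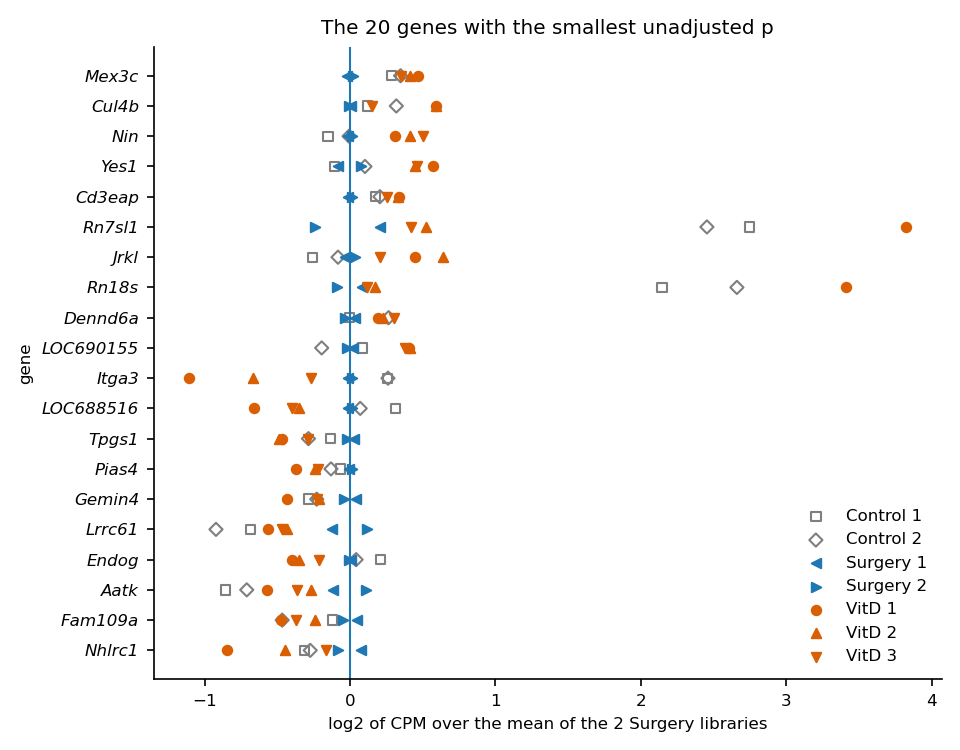
Log2 of CPM over the mean of the Surgery libraries (horizontal axis) for the 20 genes named for the smallest unadjusted p, with a marker per library. They are the 10 in each direction among genes with a mean of at least 2 CPM and no overlap between the groups. For most of them the VitD libraries lie within 0.7 of surgery, Itga3 is lowest in VitD 1, and Rn18s and Rn7sl1 stand far out in VitD 1 only among the treated libraries.

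Rn18s and Rn7sl1 were higher through VitD 1. Rn18s, an RNA of the small ribosomal subunit, measured 304 and 270 CPM with surgery and 3053, 322 and 310 CPM with VitD, and the controls had 1268 and 1812. Rn7sl1, the RNA of the signal recognition particle, measured 4.10 and 3.001 CPM with surgery and 50.3, 5.11 and 4.74 CPM with VitD. The log2 difference of Rn18s went from 2.10 to 0.14 without VitD 1, and that of Rn7sl1 from 2.50 to 0.47. LOC310926, chosen after its values were seen, had 348 CPM in VitD 1 and 50.0 to 59.6 CPM in the other 4 libraries, and Bc1, likewise chosen, had 9.18 CPM in VitD 1 and 1.31 to 3.40 CPM in the other 4. Rn18s and Rn7sl1 belong to the RNAs without a poly(A) tail. Relative to the mean of all 15 libraries, longer genes stood higher in VitD 3 and slightly lower in VitD 1. The rank correlation across genes of that deviation with gene length was -0.10, 0.27 and 0.48 in VitD 1, 2 and 3. In the Surgery libraries it was 0.11 and 0.18. Over the 15 libraries it ran from -0.65 in pMT/VitD 1 to 0.72 in pMT 3, and genes are not independent replicates. The part of these measures in the other differences of VitD 1 was not tested. Ugt1a7c, a glucuronosyltransferase, had 1.77 and 2.13 CPM with surgery and 6.21, 4.24 and 1.9 CPM with VitD, and VitD 3 lay between the Surgery libraries.

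In the lists of respiratory chain genes the medians of the VitD libraries lay close together and near the surgery level, though single genes were more spread. Nuclear genes of complex I had a median of -0.04 over 37 genes with 7 positive, and stood at -0.04, -0.07 and -0.08 in VitD 1, 2 and 3. In 11 of the 37 genes (29.7%) all VitD libraries were below both Surgery libraries, against 8.16% of all genes tested, and in 2 they were above. An example is Ndufv1, a subunit of the NADH-binding module, with 254 and 245 CPM with surgery and 239, 235 and 230 CPM with VitD. Its log2 difference of -0.09 had an unadjusted p of 0.584. No gene of complex I had one under 0.05, against 0.808% of all genes tested. Nuclear genes of complexes II to V stood at -0.04, -0.05 and -0.06. In 10 of these 41 VitD 1 was highest and VitD 3 lowest, and in 11 the reverse, against 18.5% and 19.85% of all genes tested. The 2 most abundant were lowest in VitD 1. Atp5b measured 2285 and 2280 CPM with surgery and 1752, 2246 and 2430 CPM with VitD. Atp5a1 measured 1273 and 1262 CPM against 1037, 1255 and 1299 CPM. The 13 protein genes of the mitochondrial genome were all positive, with a median of 0.10, and in 3 all VitD libraries were above both Surgery libraries, against 7.69% of all genes tested. Its most abundant transcript, COX1, measured 30878 and 31479 CPM with surgery and 35292, 34322 and 31478 CPM with VitD, so VitD 3 lay at the level of Surgery 2. These genes took 10.7% and 11.1% of counts in the Surgery libraries, 13.0%, 11.9% and 10.9% in the VitD libraries and 14.5% and 15.6% in the controls. With each VitD library left out in turn the median stayed between -0.07 and -0.05 for complex I and between 0.09 and 0.13 for the mitochondrial genome. The median of complex I was -0.01 once a trend with gene length was removed and 0.00 with replicate numbers as a block. Genes of mitochondrial biogenesis and dynamics were more spread, at -0.14, 0.03 and 0.07, with VitD 3 highest and VitD 1 lowest in 12 of 31. Pink1, a kinase of mitochondrial quality control, measured 187 and 186 CPM with surgery and 107, 159 and 188 CPM with VitD.

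The transcripts of proteins blotted in the study gave no difference beyond the spread. Des, which encodes desmin, measured 3592 and 3574 CPM with surgery and 2780, 3487 and 3768 CPM with VitD, a log2 difference of -0.10 ± 0.16 (SE). Myog, the myogenic factor myogenin, measured 48.7 and 46.6 CPM against 59.1, 47.2 and 44.8 CPM. Ppargc1a, a driver of mitochondrial biogenesis, measured 17.3 and 18.3 CPM against 18.6, 19.5 and 20.1 CPM, and Prkaa1, a catalytic subunit of AMP-activated kinase, measured 15.2 and 17.5 against 19.1, 18.4 and 17.8 CPM. In these last 2 of the 10 genes, against 7.69% of all genes tested, the VitD libraries were above surgery without overlap, by 0.13 ± 0.12 and 0.17 ± 0.18 (SE) on the log2 scale (unadjusted p = 0.321 and 0.346). Prkaa2, the catalytic subunit typical of muscle, ran from 128 to 299 CPM with VitD and held 209 and 226 CPM with surgery. The kinase Akt1 measured 100 and 102 CPM against 106, 93.2 and 93.8 CPM. Cox4i1, a subunit of cytochrome c oxidase, measured 741 and 709 CPM against 773, 679 and 646 CPM. Bax, a promoter of apoptosis, measured 9.77 and 9.29 CPM against 10.8, 9.11 and 7.44 CPM, and Bcl2, an inhibitor of apoptosis, had at most 0.351 CPM in the 5 libraries.

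In 2 other lists a gene was named because its unadjusted p was under 0.05, so that result was fixed by the choice. It was 1 of 22 activity-induced early genes and 1 of 20 myostatin and TGF-beta genes tested, against 0.808% of all genes tested. Klf2, a transcription factor listed with the early genes of muscle activity, measured 9.49 and 8.47 CPM with surgery and 6.95, 6.49 and 6.92 CPM with VitD. Its log2 difference was -0.40 ± 0.18 (SE; unadjusted p = 0.0409), with controls at 8.65 and 7.15 CPM. Fstl3, an inhibitor of activins and myostatin, measured 0.595 and 0.477 CPM with surgery and 0.351, 0.262 and 0.286 CPM with VitD. These levels rest on 46 and 35 counts with surgery and 30, 18 and 22 with VitD. All VitD libraries were below both others for each gene, and the adjusted p was 1.

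The study reports Benjamini-Hochberg correction of its p-values, but its rule for differentially expressed genes does not say which p is meant. Both readings were applied here to edgeR's exact test on the 5 libraries. A change of 2-fold or more with an unadjusted p under 0.05 selected 104 of 16746 genes (0.621%), 59 higher (0.352%) and 45 lower (0.269%). The mean was below 2 CPM in 102 of them. The other 2 were Rn7sl1 and Ugt1a7c, both higher. Surgery was at the floor in 9 genes and VitD in 4. With a Benjamini-Hochberg adjusted p in the same test 6 genes (0.0358%) were left, none with more than 76 counts in any of the 5 libraries. Folh1, a folate hydrolase, had 0 counts in both Surgery libraries and 27, 19 and 15 in the VitD libraries, at least 6.59-fold higher against a floor of 3 counts per library. The controls, with 8 and 13 counts, lay on the side of VitD. Krt19, a keratin of simple epithelia, had 0 counts in both Surgery libraries, 11, 15 and 8 with VitD and 22 and 10 in the controls. Sftpb, a surfactant protein of lung, had 16 and 18 counts with surgery, 0 in each VitD library and 0 and 4 in the controls. RGD1564744 had 76 and 75 counts with surgery and 26, 26 and 24 with VitD, and LOC103692122 and LOC103694368 had 10 to 23 counts in the Surgery libraries and 0 in the VitD libraries. In the quasi-likelihood test over all 15 libraries the adjusted p was 1 for each of the 5 that passed its filter, and LOC103692122 did not pass it.

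The VitD and surgery libraries also shared levels that set them apart from the rest of the series. In all 5 libraries 42 genes had over 1 CPM and over 2-fold more than in any of the other 10 libraries, and 2 genes were lower by the same rule. No other single group or pair of groups had such a gene. Among the 42 were Klk1, a tissue kallikrein, with 9.62 and 9.73 CPM with surgery, 21.2, 9.29 and 5.77 CPM with VitD and at most 1.35 CPM in the other 10. The complement gene C4b measured 96.5 and 91.0 CPM with surgery and 102, 90.7 and 88.5 CPM with VitD, against at most 37.6 in the others. In 33 of the 42 genes VitD 1 was the highest and VitD 3 the lowest of the 5 libraries. LOC691532 was the clearest of the 2 lower genes, with 0.164 to 0.194 CPM in the 5 libraries and 18.9 to 60.2 CPM in the other 10, and both groups were alike in it.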

How the data were processed

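RNA was measured by paired-end sequencing in 15 libraries, grouped by their labels. Per the submitters' notes the authors used Trimmomatic 0.38, HISAT2 2.1.0 on rn6, SAMtools 1.9 and StringTie 2.1.3b, and deposited read counts per gene, TPM and FPKM. Handling of strand and of reads shared between genes is not given in the sources used here, so overlapping or near-identical genes are uncertain. Counts entered every test. The deposited TPM values gave a relative gene length, and the deposited FPKM values were not used. The table names 37991 genes, and 428 share a symbol with another.

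CPM values used TMM-scaled library sizes, and log2 CPM for distances added a prior count of 2. The main test was the two-sided quasi-likelihood F-test of edgeR 4.0.16 in R 4.3.3, fitted to all 15 libraries with robust dispersions and the filterByExpr genes. Its SE is the log2 difference over the root of F. For 6 genes none could be had. The study's rule used exactTest. limma 3.58.1 and DESeq2 1.42.0 served as alternatives, listed in the closing section. Counts of each pair among the 7 libraries differed by more than sampling noise, so none was treated as a repeat deposit of another; whether they are separate animals remains unknown. The quasi-likelihood test and the exact test were also run on simulated counts with 200 genes changed. The other steps were not.

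The comparison, its 43 gene lists and 16 marker lists were chosen with earlier results of these data known. Named genes were the 10 per direction with the smallest p, at least 2 CPM and no overlap, all vitamin D genes, the 2 most abundant of each other list with any at an unadjusted p under 0.05, and blotted proteins. Chrna1, Runx1, Actc1, Postn, Mki67, Pfkfb3, Mylk2, Fbxo32, Ndufv1, Bc1, LOC310926, Ugt1a7c, the genes of the study's rule and those of the final paragraph were chosen after their values were seen.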

Additional observations from a re-analysis of the deposited data

How the results depend on the processing

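Leaving out each library in turn gave 0 to 1 called genes; the 1 was Tnfrsf13b, lower without VitD 2 (1.29 and 1.42 CPM with surgery, 0.164 and 0.208 in VitD 1 and 3). Voom with quality weights called 419 genes against 0, 17 of them named above; the other alternatives called none. Against 139 genes at an unadjusted p under 0.05 there were 240 with any gene that had a count, 3273 under voom with quality weights and 218 without weights, 235 with only the 5 libraries in the fit, 249 with the control, surgery and VitD libraries, 208 without pMT 4 and pMT/VitD 4, and 120 to 432 with a library left out, the highest without VitD 3. Against 104 genes with an unadjusted p, the study's rule gave 6 with an adjusted p. With an unadjusted p it gave 2 at a mean of at least 2 CPM (added after the data were seen). It gave 234 with any gene that had a count and 24 with at least 10 counts in each library. With a VitD library left out it gave 97 to 172, the highest without VitD 3. The cause of these shifts was not tested. The labels number replicates in each group, but only 2 numbers are shared and nothing says that they mark a pairing: deviations correlated at 0.02 and 0.04. With the replicate block 0 genes were called and 199 had an unadjusted p under 0.05. Of 2222 values of named genes under alternatives 129 changed sign, in 72 genes, and of 731 list medians 76 did. Below 1 CPM 13.0% of genes had an interval within 2-fold, against 95.2% at 2 CPM or more.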
